A study of Mus musculus with 6 samples.

Results

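The regions described here are 500 stretches of open chromatin that every library of blood monocytes had as a peak and in which the peaks of thrombocytopenic mice had a lower fold over background than those of control mice. ATAC-seq, the assay used, relies on a transposase that inserts sequencing adapters where DNA is accessible. The DTR group holds 3 libraries of monocytes from mice of the PF4cre-iDTR genotype, in which Cre under the promoter of the platelet chemokine gene Pf4 switches on a receptor for diphtheria toxin. The WT group holds 3 libraries from wild-type mice. Mice of both groups were given the toxin, so the groups share it and differ in genotype and platelet depletion. The labels name blood and monocytes as the source and give neither sex nor age nor whether libraries came from separate animals.

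The members were chosen by the measured folds of the same DTR and WT libraries. Peaks of the 6 lists that overlapped or touched were merged on chromosomes 1 to 19, which gave 90477 regions, and 67099 of these had a peak in all 6 libraries. The value of a region in a library was the highest fold of its peaks there, on a log2 scale, minus the library's median over the shared regions. In 7469 shared regions (11.1%) the highest of the 3 DTR values lay below the lowest of the 3 WT values, and in 4539 (6.76%) the lowest DTR value lay above the highest WT value. Without the subtraction of medians these counts turned round, to 3433 lower and 6969 higher. The 500 members are the lower regions with the greatest difference between the group means. Their lower fold in DTR is therefore the rule itself, and it is given below as a description with no test.

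An accessible region is a place where nucleosomes leave DNA free for transcription factors. At gene starts such regions are promoters and are often open in every cell type, while those inside and between genes include enhancers, which differ more between cell types and activation states. Monocytes are short-lived phagocytes of the blood, and factors such as PU.1, C/EBP, KLF4 and RUNX1 set up their enhancers. A fold per library averages over all its cells, so fewer cells with an open site and less opening per cell cannot be told apart.

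The sequences of 5 promoters show what lies under members at gene starts. They are shown because the rule for named genes picked these regions and because the whole window, from 250 bases before to 50 bases after a start site, lies inside the member. The sequences are those of RefSeq on build GRCm38.p6, read 5′ to 3′ along the gene. Capitals mark matches, on either strand, to 14 short motifs named further below.
Klf4 (a monocyte transcription factor; chr4:55532426-55532725, minus strand): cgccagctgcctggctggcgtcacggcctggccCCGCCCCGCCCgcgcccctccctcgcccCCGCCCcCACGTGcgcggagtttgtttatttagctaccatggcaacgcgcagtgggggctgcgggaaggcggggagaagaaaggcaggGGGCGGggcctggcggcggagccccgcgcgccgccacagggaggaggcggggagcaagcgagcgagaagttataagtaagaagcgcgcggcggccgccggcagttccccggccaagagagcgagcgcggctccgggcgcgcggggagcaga
Sirpb1a (a receptor of the signal regulatory protein family; chr3:15426378-15426677, minus strand): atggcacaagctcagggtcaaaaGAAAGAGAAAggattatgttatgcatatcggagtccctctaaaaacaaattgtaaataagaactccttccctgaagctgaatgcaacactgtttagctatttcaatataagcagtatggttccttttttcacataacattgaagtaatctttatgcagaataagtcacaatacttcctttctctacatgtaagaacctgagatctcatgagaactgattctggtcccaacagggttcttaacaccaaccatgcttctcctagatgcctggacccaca
Zfp108 (a zinc finger gene; chr7:24254544-24254843, plus strand): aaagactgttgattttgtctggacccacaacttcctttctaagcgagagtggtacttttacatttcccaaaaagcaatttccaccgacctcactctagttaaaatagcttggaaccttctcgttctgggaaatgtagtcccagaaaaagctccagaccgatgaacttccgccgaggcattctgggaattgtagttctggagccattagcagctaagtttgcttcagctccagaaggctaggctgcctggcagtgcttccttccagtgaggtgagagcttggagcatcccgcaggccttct
Mgat5 (an enzyme that branches N-linked sugar chains; chr1:127204736-127205035, plus strand): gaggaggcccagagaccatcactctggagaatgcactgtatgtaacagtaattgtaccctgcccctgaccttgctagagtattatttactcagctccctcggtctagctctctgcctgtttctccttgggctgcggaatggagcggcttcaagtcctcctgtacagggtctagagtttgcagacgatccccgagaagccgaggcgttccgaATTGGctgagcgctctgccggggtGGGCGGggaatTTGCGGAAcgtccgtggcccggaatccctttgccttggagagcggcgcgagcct
Tmem181a (a membrane protein gene; chr17:6270220-6270519, plus strand): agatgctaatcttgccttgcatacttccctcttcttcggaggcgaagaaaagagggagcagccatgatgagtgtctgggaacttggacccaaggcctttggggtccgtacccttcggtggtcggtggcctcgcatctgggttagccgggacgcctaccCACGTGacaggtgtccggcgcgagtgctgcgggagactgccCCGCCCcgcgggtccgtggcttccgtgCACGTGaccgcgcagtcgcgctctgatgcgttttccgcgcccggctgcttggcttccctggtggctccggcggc
The Zfp108 window holds no match to any of the motifs. The Klf4 and Tmem181a windows hold the GC box GGGCGG and the E-box CACGTG. The Mgat5 window holds a GC box, a CCAAT box and a match to the C/EBP letters, and the Sirpb1a window a match to the interferon-stimulated response element (ISRE). The gene table classes the Tmem181a member as gene body, although a start site of the promoter table lies inside it.

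The lists held 81567 to 84029 peaks in DTR and 77867 to 80475 in WT, and the length covered by those on chromosomes 1 to 19 was 48.3 ± 1.11 Mb in the DTR libraries, against 44.9 ± 1.90 Mb in the WT libraries (SD, n = 3 each). For both measures the groups did not overlap, and exact two-sided permutation tests over libraries gave p = 0.1, the smallest that 3 against 3 allows. The lists hold no read counts, so depth is unknown. The median fold over the shared regions was 5.84, 5.91 and 5.75 in DTR libraries 1 to 3 and 5.65, 5.71 and 5.79 in WT libraries 1 to 3. Its log2 value differed by 0.03 between DTR and WT, which the same test did not tell from 0 (exact permutation p = 0.2). Shared regions lay at an end of all 15 classical monocyte genes listed, 14 of 15 non-classical ones, 11 of 12 dendritic cell, 11 of 12 stem and progenitor, 10 of 15 neutrophil, 8 of 12 macrophage, 5 of 9 erythroid, 7 of 15 megakaryocyte and platelet, 5 of 10 B cell and 6 of 15 T and NK cell genes. A pair of loci on the X chromosome, which the rule leaves out, separated the groups: Firre had 17, 17 and 18 peaks in DTR and 2 in each WT library, and Xist had 3 in each DTR library and 1 in each WT library. The part of the animals' sex in the values below was not tested.

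Across the 500 members the median deposited fold was 5.13, 5.25 and 4.96 in DTR libraries 1 to 3, against 6.17, 6.74 and 6.75 in WT libraries 1 to 3. The difference of the centred log2 values, DTR minus WT, ran from −0.69 to −0.31 with a median of −0.36, which is a fold in DTR of 0.621 to 0.807 times that in WT. In 10 members the DTR fold was lower by 1.5 times or more. Over all shared regions the median difference was −0.02. The SD within a group, on the same scale, had a median of 0.10 in DTR and 0.13 in WT over the members, against 0.08 and 0.09 over all shared regions. The WT libraries did not stand equally far from DTR: WT library 1 was the lowest of its group in 238 of 500 members, library 2 in 124 and library 3 in 138. DTR library 3 was the lowest of its group in 203, library 1 in 151 and library 2 in 146. In 426 members the groups also stayed apart in the folds as deposited, with no centring.

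**Figure D1:**
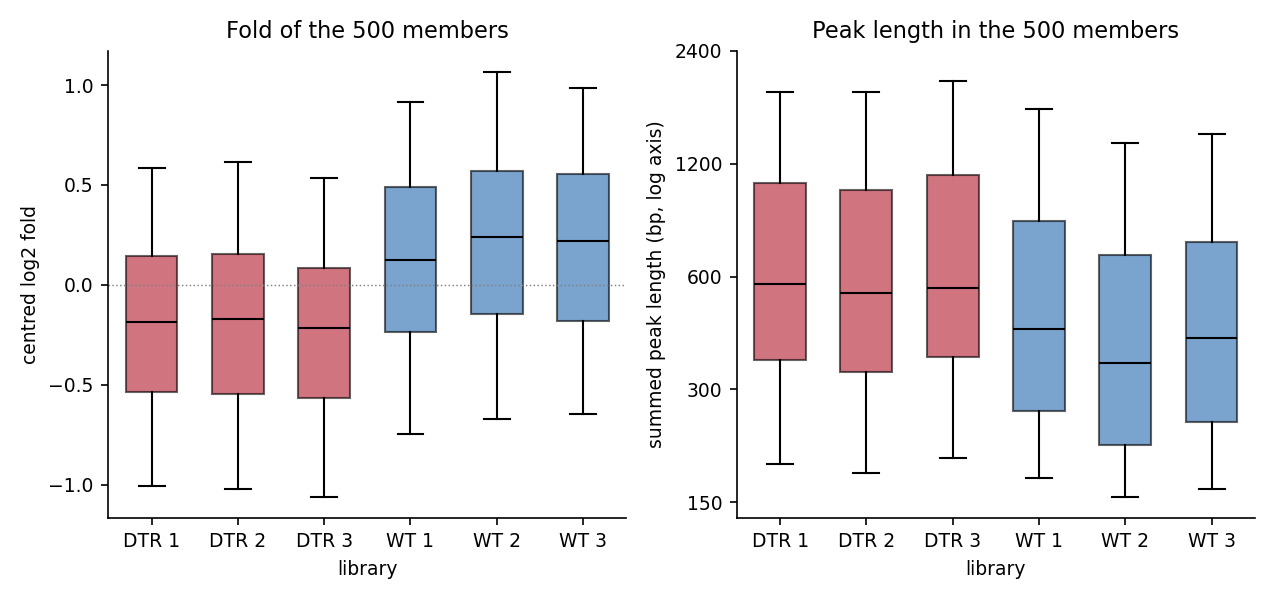
Centred log2 fold (left) and summed peak length in bp on a log axis (right) of the 500 members in each of the 3 DTR and 3 WT libraries. Boxes span the middle quartiles with the median as a line, and whiskers reach the 5th and 95th percentiles. The DTR medians of the fold lie at −0.19, −0.17 and −0.22 and the WT medians at 0.13, 0.24 and 0.22, an order fixed by the rule, while the lengths run the other way, with DTR medians of 572, 542.5 and 560 bp and WT medians of 434, 352 and 411.5 bp.

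The members spanned weak to strong regions, with somewhat more in the middle of the range. With the shared regions ranked by their mean over all 6 libraries and cut into 4 equal bins, the bins held 99, 146, 163 and 92 members, from the weakest to the strongest. The median width of a member was 676 bp, against 659 bp for all shared regions, and the upper quartile was 1240 bp against 984.5 bp. Around a member a median of 7 other shared regions lay within 50 kb, the same number as around any shared region.

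The location of the members relative to protein-coding genes was not part of the rule. Gene ends, meaning regions no more than 1 kb from where a gene begins or stops, made up 62 members (12.4%), against 19.3% of all shared regions and 27.5% of all 7469 lower regions. Gene bodies held 234 (46.8%), against 43.3% of all shared regions, and 204 (40.8%) were intergenic, against 37.4%. Read the other way, 15.9% of shared regions at gene ends were lower in DTR without overlap, against 10.2% in gene bodies and 9.73% between genes, yet 0.479% of gene end regions were members, against 0.806% and 0.813%. A RefSeq start site lay inside 52 of the 490 members on chromosomes with start sites used here (10.6%), against 15.3% of shared regions. Among the 500 regions with the greatest difference in the opposite direction, gene ends held 19 (3.80%). Regions are not replicates, and these shares are a description with no test.

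**Figure D2:**
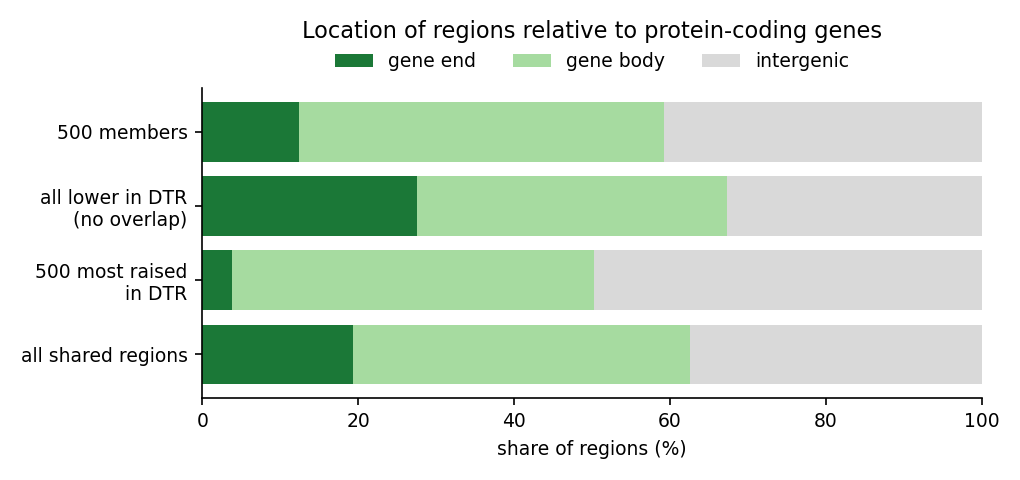
Share of regions, in percent, that lie at an end of a protein-coding gene, in a gene body or between genes, for the 500 members, all regions lower in DTR without overlap, the 500 regions most raised in DTR and all shared regions. Gene ends make up 12.4% of the members, 27.5% of all lower regions, 3.80% of the 500 most raised and 19.3% of all shared regions.

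At gene ends the greatest difference lay beside Pim1, which encodes a survival kinase induced by cytokines (chromosome 17, 29496541 to 29498621). Its folds were 2.65, 4.05 and 2.55 in DTR libraries 1 to 3, against 4.06, 4.48 and 4.52 in WT libraries 1 to 3, so DTR library 2 came close to WT library 1. The region over the start of Zfp108, a zinc finger gene (chromosome 7, 24254348 to 24255929), had 6.68, 8.19 and 5.66 in DTR, against 8.76, 9.81 and 10.5 in WT. At the start of Mgat5 (chromosome 1, 127204731 to 127207454) the folds were 7.15, 5.01 and 4.93 in DTR, against 7.22, 8.24 and 7.74 in WT, with DTR library 1 next to the lowest WT library. Sirpb1a (chromosome 3, 15426311 to 15428633) had 6.12, 5.75 and 5.91 in DTR, against 6.05, 9.08 and 9.85 in WT. Before centring, WT library 1 thus lay among the DTR libraries at Sirpb1a, and the other WT libraries lay well above.

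The remaining gene end members named by the rule include a gene of leukocyte movement. Nckap1l encodes HEM1, the WAVE complex subunit of blood cells that drives actin branching (chromosome 15, 103453425 to 103455124). It had 5.30, 5.31 and 5.36 in DTR, against 5.96, 7.62 and 8.14 in WT, so the DTR libraries were nearly equal and WT library 1 was again the nearest. Arap3, which encodes a GTPase activating protein for ARF6 and RhoA (chromosome 18, 37998370 to 37999886), had 5.75, 5.62 and 4.97 in DTR, against 5.73, 8.47 and 8.15 in WT. Here DTR library 1 and WT library 1 are apart only after centring. Agpat2, an enzyme of phospholipid synthesis, had 5.98 to 7.50 in DTR and 8.65 to 9.86 in WT. Mrgpre, which encodes a receptor of the Mas-related family, had 2.38 to 2.95 in DTR and 3.22 to 4.08 in WT.

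In gene bodies the member with the greatest difference of all lay in Tomm20, which encodes a receptor for protein import into mitochondria (chromosome 8, 126935781 to 126936471). Its folds were 8.24, 7.10 and 5.48 in DTR libraries 1 to 3, against 8.72, 14.1 and 10.2 in WT libraries 1 to 3. The groups are apart, but DTR library 1 and WT library 1 nearly meet, and both groups spread widely. The region in B4galt1, a galactosyltransferase gene (chromosome 4, 40823631 to 40825149), had 6.23, 5.59 and 5.40 in DTR, against 9.36, 8.16 and 9.20 in WT, with a clear space between the groups in the highest peak, although with all its peaks weighted by length the difference was −0.06, against −0.66. The region in Nampt, which encodes the enzyme that salvages nicotinamide for NAD synthesis (chromosome 12, 32826751 to 32827428), had 8.75, 6.13 and 6.60 in DTR, against 9.49, 12.99 and 8.99 in WT. DTR library 1 came close to WT library 3 there.

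Abhd5, which encodes a cofactor of triglyceride breakdown, had 6.44 to 7.16 in DTR and 8.16 to 11.7 in WT (chromosome 9, 122370140 to 122370832). Tmem181a had 5.91 to 6.46 in DTR and 8.43 to 9.44 in WT (chromosome 17, 6270176 to 6272302). The other gene body regions of the rule lay in Cracd, Mpp4 and Eya4. Eya4, a transcriptional cofactor gene, held the weakest of them, with 2.88 to 3.08 in DTR and 3.86 to 4.85 in WT.

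Between genes the named members lay 1111 to 45672 bp from the nearest protein-coding gene. The region near Tbc1d1, which encodes a Rab GTPase activating protein of glucose uptake (chromosome 5, 64391215 to 64393194), had 4.80, 5.13 and 4.79 in DTR, against 6.50, 7.86 and 8.34 in WT. A region 1673 bp from Nf1, the gene of the Ras inhibitor neurofibromin (chromosome 11, 79583282 to 79584634), had 4.91, 4.74 and 4.75 in DTR, against 5.23, 9.45 and 7.82 in WT, with WT library 1 close to DTR. The region 5331 bp from Kcnc1, a potassium channel gene (chromosome 7, 46389790 to 46390888), had 5.87, 5.99 and 5.82 in DTR, against 8.12, 8.83 and 8.91 in WT. At Kcnc1 both groups were tight and far apart. Regions near Gnaq, Zcwpw2, Crb2, Zfp941 and Clmp had DTR folds of 3.51 to 6.07 and WT folds of 5.09 to 9.24.

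**Figure D3:**
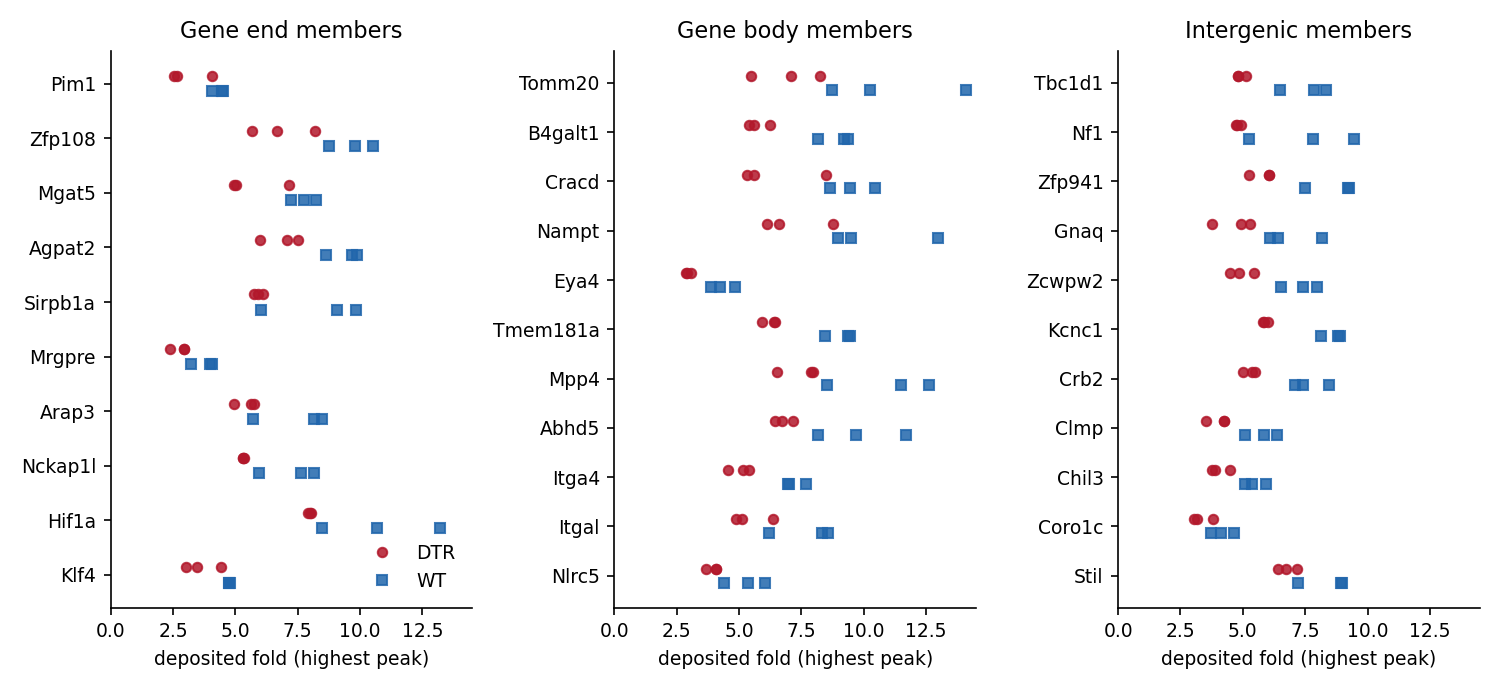
Deposited folds, before centring, of members named by the location and gene list rules at gene ends, in gene bodies and between genes, in order of their difference from top to bottom. Each panel stops at a fixed number of rows, so some gene body members, such as those in Runx1 and Cdk6, are not drawn. Each row is a member labelled by the gene it lies at, in or nearest to, and each point is 1 of 3 DTR libraries (circles) or 1 of 3 WT libraries (squares). At Kcnc1 the circles lie between 5.82 and 5.99 and the squares between 8.12 and 8.91, while at Arap3, Sirpb1a, Itgal and Coro1c the groups meet before centring.

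Of the 5 members with the highest WT folds, those at Map4 and Defb42 had groups that overlapped before centring. The region in Asb7, a ubiquitin ligase adaptor gene (chromosome 7, 66661439 to 66661972), had 18.3, 18.2 and 19.8 in DTR, against 25.04, 21.7 and 23.0 in WT. Rab39, which encodes a small GTPase of vesicle traffic (chromosome 9, 53693682 to 53694175), had 11.8, 12.2 and 9.18 in DTR, against 15.5, 15.0 and 15.4 in WT. The WT libraries agreed closely there and the DTR libraries did not. In Map4, a microtubule protein gene, DTR had 11.4, 15.7 and 10.6, against 15.7, 16.0 and 15.9 in WT, with DTR library 2 just above WT library 1. The regions at Impa1 and Slc10a5 and near Defb42 had 10.2 to 14.1 in DTR and 13.7 to 16.1 in WT.

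At the limit of 500 the differences were alike on both sides. The last members lay in Fbxw7 and in Ido2 and the next regions outside in Cd200r3 and in Clcn3, with a difference of −0.31 in each of the 4.

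Of all shared regions, 0.745% were members. The gene lists take regions within 10 kb of genes and were not matched for location. Shared regions at gene ends in general were lower without overlap in 15.9% and higher in 3.48%. Of 73 shared regions within 10 kb of the classical monocyte genes, 11 (15.1%) were lower in DTR without overlap and 1 was higher, against 11.1% and 6.76% over all shared regions, and 1 was a member. It lay 2510 bp from Chil3, which encodes a chitinase-like protein of inflammatory monocytes and macrophages (chromosome 3, 106170074 to 106171564). The folds there were 3.87, 4.48 and 3.75 in DTR, against 5.94, 5.09 and 5.36 in WT, so the groups are apart. Of 106 regions at non-classical monocyte genes 19 (17.9%) were lower and 2 higher, and the member among them lay in Itgal.

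Integrin and platelet-binding genes held 4 members among 102 regions (3.92%, against 0.745% of all shared regions), of which 18 (17.6%) were lower and 4 higher. Itga4 and Itgal encode alpha chains of the integrins VLA-4 and LFA-1, with which monocytes hold on to vessel walls. The region in Itga4 (chromosome 2, 79301629 to 79302777) had 5.40, 4.58 and 5.16 in DTR, against 7.69, 6.99 and 6.95 in WT. That in Itgal (chromosome 7, 127308772 to 127309251) had 5.10, 6.35 and 4.89 in DTR, against 6.20, 8.34 and 8.56 in WT, with DTR library 2 above WT library 1 before centring. The third, 1396 bp from Coro1c and within 10 kb of Selplg, the gene of the P-selectin ligand, had 3.04 to 3.81 in DTR and 3.71 to 4.64 in WT. The fourth lay at Cd47, whose product is a signal against phagocytosis; it is outside the naming rule and was chosen after its values were seen.

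Myeloid transcription factor genes held 4 members among 222 regions (1.80%), of which 34 (15.3%) were lower and 8 higher. Klf4, a factor needed for monocyte differentiation, had a member over its start (chromosome 4, 55530143 to 55533445) with 3.47, 4.41 and 3.03 in DTR, against 4.74, 4.80 and 4.75 in WT. The WT libraries were nearly equal there and each DTR library was lower. These folds are those of the highest peak, and the split of peaks differed. There were 1, 3 and 1 peaks in DTR libraries 1 to 3, against 2, 3 and 3 in WT libraries 1 to 3. In Runx1, a factor of blood cell formation (chromosome 16, 92669412 to 92670002), the folds were 6.45, 6.39 and 5.72 in DTR, against 6.52, 8.52 and 9.69 in WT, with WT library 1 beside DTR. Another lay near Atf3, a stress response factor gene, and was named after its values were seen.

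Further lists held 1 member each. At Hif1a, the gene of the oxygen-sensitive factor that turns on glycolysis (chromosome 12, 73901022 to 73901615), the folds were 7.99, 8.05 and 7.93 in DTR, against 8.49, 13.2 and 10.7 in WT. The DTR libraries were nearly equal and the WT libraries spread. In Nlrc5, which encodes the activator of MHC class I genes, DTR had 3.69 to 4.08 and WT 4.40 to 6.04. In Cdk6, a cell cycle kinase gene, DTR had 5.11 to 5.39 and WT 6.02 to 7.02, and near Tal1, an erythroid factor gene, DTR had 6.39 to 7.16 and WT 7.22 to 8.97.

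The share of lower regions varied between the other lists, most of which held no member. It was 22.4% (13 of 58) at oxidative phosphorylation genes, 21.3% (26 of 122) at cell cycle genes and 16.3% (14 of 86) at dendritic cell genes. It was 14.9% (23 of 154) at phagocytosis genes, 14.8% at both neutrophil (8 of 54) and inflammatory cytokine genes (17 of 115), and 13.7% (13 of 95) at antigen presentation genes. These lie above the 11.1% of all shared regions. Only the shares at oxidative phosphorylation, cell cycle and dendritic cell genes also lie above the 15.9% of shared regions at gene ends. Further lists had shares of 10.1% to 13%, close to the 11.1% of all shared regions. They were erythroid (3 of 23), glycolysis (14 of 108), stem and progenitor (10 of 82) and coagulation genes (11 of 94). Interferon response (10 of 97), histone modifying enzyme (25 of 246) and TGF-beta genes (15 of 149) were also among them. Lower shares were seen at T and NK cell (3 of 30), megakaryocyte and platelet (6 of 71), macrophage (3 of 41) and B cell genes (1 of 30). At T and NK cell, macrophage and B cell genes more regions were higher than lower, with 4 higher in each list. In every other list fewer regions were higher than lower. These shares were given no test.

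Several genes were the label of more than 1 member, as the gene it lay at, in or nearest to at any distance. These genes were picked out after their values were seen. Prex1, which encodes an activator of the GTPase Rac in leukocytes, was the nearest gene of 4 members, 1 inside it and 3 at 31806 to 118802 bp. The member inside Prex1 (chromosome 2, 166699454 to 166701190) had 6.38, 4.94 and 4.80 in DTR, against 6.74, 6.74 and 6.77 in WT. Another 20 genes were tied to 2 members each, among them Klf4, Nampt, Nf1, the transcription factor genes Zeb2 and Prdm1, and Pde4b, which encodes a phosphodiesterase that breaks down cyclic AMP. Within Pde4b the members had 5.28 to 5.89 in DTR and 6.94 to 7.57 in WT, and 1.86 to 2.09 in DTR and 2.22 to 2.74 in WT. Most members stood alone: 474 had no other member within 50 kb, and 26 formed 13 pairs.

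The peaks of the members were longer in DTR. In broad mode, the caller named by the submitters writes the fold of a peak as a mean over its whole length. Peaks in the members had a median summed length of 572, 542.5 and 560 bp in DTR libraries 1 to 3, against 434, 352 and 411.5 bp in WT libraries 1 to 3. Over all shared regions the medians were 549 to 569 bp in DTR and 508 to 551 bp in WT. In 228 members (45.6%) each DTR length was above each WT length, where 13% of all shared regions were so, and in 15 members (3%) each was below, against 1.87%. Of the 500 regions most raised in DTR, 191 (38.2%) were longer there by this measure and 21 (4.2%) shorter. Longer peaks in DTR were thus not particular to the members. Because the rule used the same libraries and peaks, these counts are read as a description, and the part of length in the lower folds was not tested.

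The split of peaks also differed between the groups. More than 1 peak lay in 20, 27 and 10 members in DTR libraries 1 to 3 (4%, 5.4% and 2%), against 54, 88 and 80 in WT libraries 1 to 3 (10.8%, 17.6% and 16.0%). Over all shared regions it was 0.782% to 1.37% in DTR and 0.988% to 2.12% in WT. In B4galt1, for example, a single peak of 1263, 1227 and 1470 bp in the DTR libraries stood against 2 peaks in every WT library, of 643, 929 and 908 bp in sum. At Tmem181a it was a single peak of 2099 to 2126 bp in DTR and 2 peaks of 1146 to 1166 bp in sum in WT. With the fold taken as the mean over all peaks of a region, weighted by length, the difference was −0.04 at Tmem181a, −0.05 at Arap3, −0.07 at both Mgat5 and Sirpb1a and −0.15 at Klf4, against −0.57, −0.46, −0.49 at both and −0.44 with the highest peak. It was −0.28 at Pim1, −0.33 near Tbc1d1 and −0.37 near Zfp941, against −0.56, −0.65 and −0.61. In all of these at least 1 WT library had several peaks. Over the 500 members the median with this mean was −0.35, and 467 members stayed lower without overlap. For most of them this was fixed in advance. In 398 members every library had a single peak, so this mean is the highest fold there and only the centring can move it. The other 102 had several peaks in some library. The region near Zcwpw2 was longest in proportion, with 892 to 1025 bp in DTR and 155 to 250 bp in WT.

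A measure that takes both into account is the sum of fold times length over a region's peaks, with each library scaled by its median fold. By this sum the members were not lower as a set. The median difference of the log2 sums, DTR minus WT, was 0.14, with 164 members below 0 and 336 above. Most shared regions lay above 0 as well, with 25790 of 67099 below 0, 41309 above and a median of 0.03. In 75 members (15.0%) each DTR sum was below each WT sum, against 5.51% of all shared regions, and in 104 (20.8%) each was above, against 12.0%, but with each library centred on its median sum these counts turned round, to 94 below (18.8%, against 20.3% of all shared regions) and 64 above (12.8%, against 6.20%), with a median of 0.05. For B4galt1 the sum in DTR was 1.55 times that in WT, for Tomm20 1.28 times and for Tmem181a 1.77 times, each with all DTR sums above all WT sums. For Kcnc1 it was 0.700 times, for Eya4 0.570 times and for Nckap1l 0.864 times, each with all DTR sums below all WT sums.

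**Figure D4:**
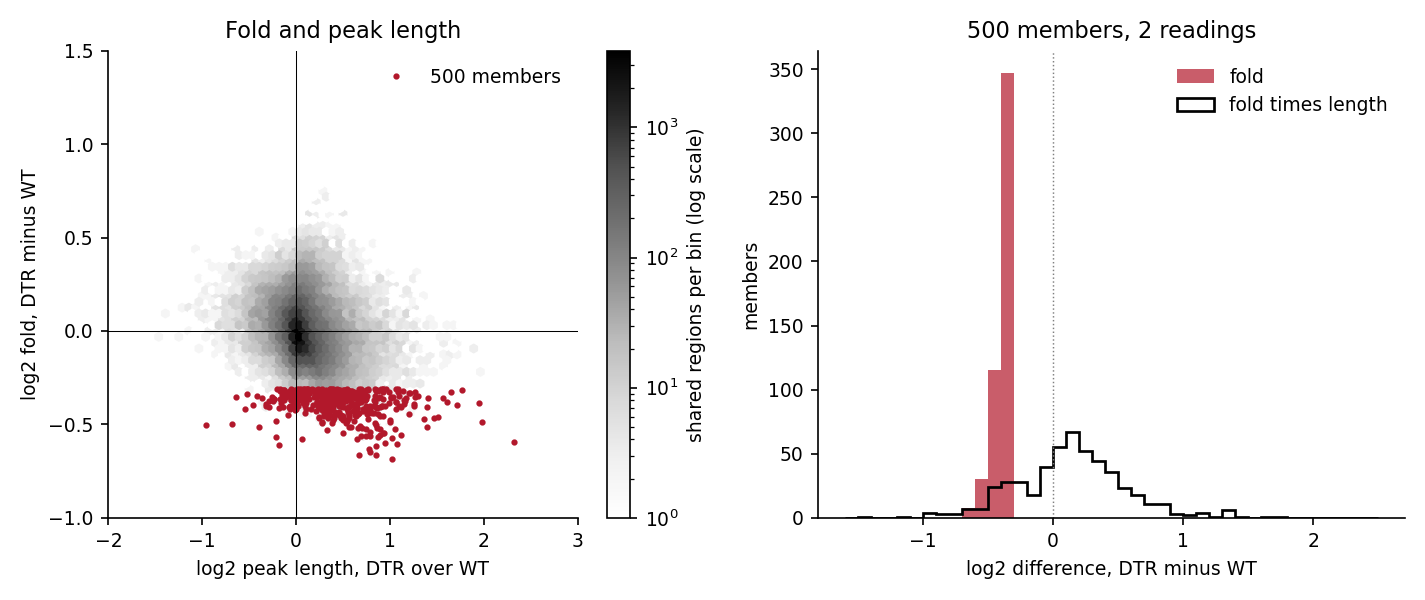
Left, difference of the log2 fold (DTR minus WT) against the log2 ratio of mean summed peak length (DTR over WT) for all 67099 shared regions (grey bins, log scale) and the 500 members (red). Right, number of members by the log2 difference (DTR minus WT) of the fold (filled) and of the sum of fold times length (line). The members lie mostly right of 0 in length, with 439 of 500 longer on average in DTR. So were 47544 of all 67099 shared regions and 397 of the 500 regions most raised in DTR. The members' sums spread on both sides of 0, with 164 below and 336 above, against 25790 below and 41309 above over all shared regions.

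A smaller set of members differed in fold at near-equal length. In 58 members every library had a single peak and the mean lengths differed by less than 0.1 on the log2 scale. Their median difference in fold was −0.34, and at such lengths the sum follows the fold that chose them. The same held for 37347 of all 67099 shared regions, a much larger share than among the members. Of these 37347 regions, 4004 (10.7%) were lower in DTR and 2104 (5.63%) higher. The 58 comprised 7 gene end, 26 gene body and 25 intergenic regions, and the limit of 0.1 was chosen after the values were seen.

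Among these 58 the region near Kcnc1 had the greatest difference, with lengths of 1063, 1095 and 1035 bp in DTR, against 1015, 1020 and 1020 bp in WT. A region in Cbx7, a Polycomb subunit gene (chromosome 15, 79956582 to 79956795), followed, with folds of 6.68, 5.73 and 5.11 in DTR, against 7.76, 7.74 and 7.79 in WT. In Itgb5, an integrin beta chain gene (chromosome 16, 33859989 to 33860947), the folds were 6.37, 6.14 and 5.97 in DTR, against 7.99, 7.48 and 8.75 in WT. The groups are apart in all of these before centring as well. At Fgfr1, a growth factor receptor gene (chromosome 8, 25518646 to 25519437), DTR had 3.36 to 3.81 and WT 4.36 to 4.84.

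Promoter letters of the members were set beside those of other open promoters. For 44 genes a whole RefSeq promoter window lay inside a member, against 9470 genes for all shared regions and 25748 windows in all, taking 1 window per gene. The median GC content was 59.5% in the members, 62.3% in shared regions and 52.7% in all windows. The ISRE motif was found in 6 of 44 windows (13.6%), against 3.24% of shared and 3.53% of all windows. The PU.1 letters GAGGAAGT were found in 4 (9.09%), against 3.67% and 3.34%, and the E-box CACGTG in 7 (15.9%), against 10.9% and 7.11%.

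Other motifs differed less or in the other direction. The GC box GGGCGG lay in 26 windows (59.1%), against 68.2% of shared and 36.0% of all windows, and the CCAAT box CCAAT in 16 (36.4%), against 38.0% and 37.7%. The ETS letters CCGGAAGT lay in 5 (11.4%), against 9.16% and 4%, the C/EBP letters TTGCNNAA in 4 (9.09%), against 7.85% and 10.9%, and the RUNX letters TGTGGTT in 3 (6.82%), against 3.70% and 5.38%. The AP-1 letters TGANTCA were in 2, and the CRE letters TGACGTCA, the GATA letters AGATAA and the EGR letters GCGTGGGCG in 1 each. The NF-kB and NRF1 motifs were in 0 of 44, against 1.43% and 2.16% of shared windows. Both strands were searched, windows of neighbouring genes can overlap, a match is not a binding site, and with 44 windows the shares are a description.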

How the data were processed

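The authors deposited a broadPeak list for each of the 6 libraries, with no pooling of replicates. The lists carry no header, and columns were read by the broadPeak layout: the authors' score (10 times the −log10 q for 99.9% of peaks, truncated), the fold over the caller's background (a ratio), and the −log10 of the p-value and q-value. Tools named in the submitters' processing notes are MACS2, fastp, Bowtie and version 2.4.4 of Bowtie2. Their parameters, the build and any transposase shift are not given in sources used here.

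Positions are those of the lists, counted from 1. RefSeq start sites of GRCm38.p6 fell in shared regions for 43.7% to 63.2% of sites per chromosome, against 1.94% to 5.70% after moving them by 5 or 20 kb. Gene ends and bodies came from the same build's protein-coding genes, and 391 of 393 listed genes matched (Mx1 and Mx2 did not). Folds of different lists were compared only as the rule for the regions does. Measures of whole libraries were compared by exact permutation tests and, in pairs, by an exact sign-flip test (SciPy 1.17.1), and the members' folds were not tested. The labels do not say whether libraries are separate animals, so a p measures the spread between these libraries. The code was tested on simulated lists.

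Members and the 22 gene lists were chosen with earlier results of these data known. Named were the 8 members with the greatest difference per location (1 per gene, intergenic ones within 50 kb of a gene), the 5 with the highest WT fold, up to 3 per list within 10 kb, and the regions at the limit of 500. Genes with 3 or more members within 10 kb would also have been named, and none had so many. Alternatives changed centring, the region's value, peak limits, widths and libraries. Sums of fold times length and the near-equal set were added after the data were seen. A region that the naming rule picks is not reported here.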

Additional observations from a re-analysis of the deposited data

How the results depend on the processing

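Of 112 alternative values for the counts, the median difference, the gene end share and the median fold, 80 were classed as the same. A count had to stay within 1.5 times, and the median difference within 1 SD between replicates. The gene end share had to stay within a binomial interval over the 500 members. The median fold had to keep its sign and its side of a p limit that tests on so few libraries cannot reach. All 637 alternative values of the named regions kept their direction. For many of them it was fixed in advance, because leaving out 1 library cannot turn a difference between groups without overlap. Settings that only filter by width or single peaks, or ask for same-numbered pairs, reuse the same values. The mean weighted by length does so too, apart from the centring, where every library has a single peak. Of the 637, 38 moved by over 1 SD. Of those 38, 28 came with −log10 p, which has its own scale, and 10 with the mean over peaks weighted by length, the closest to 0 being −0.04 at Tmem181a. Without centring, regions lower in DTR numbered 3433 and higher ones 6969. With −log10 p in place of the fold the members' median difference was −0.59 on its own log2 scale. With windows of 2.5 kb gene ends held 20.8% of members, against 25.7% of all shared regions. By the sum of fold times length scaled by the median fold, 3698 regions were lower and 8084 higher, 75 members were lower and their median difference was 0.14; centred on the median sum, 13635 regions and 94 members were lower and the median was 0.054. The 58 members of near-equal length are a smaller set by construction. Leaving out 1 library loosens the rule: lower regions then numbered 10572 to 13940 (11296 without DTR library 1, 11260 without DTR library 2 and 13940 without WT library 1, each over 1.5 times the count with all) and higher ones 6969 to 8568, and 264 to 322 of the 500 members were among the 500 of the new ranking (264 without WT library 1). The difference in log2 median fold was 0.02 to 0.04 over these settings (exact permutation p of 0.2 to 0.4). With a replicate block, asking for a lower value in each same-numbered pair, 14261 regions were lower and 9306 higher, 403 members were among the new 500, and the median fold differed by 0.03 (exact sign-flip p = 0.5, smallest possible 0.25). Deviations of same-numbered libraries correlated at 0.00327, 0.0740 and −0.0324, against −0.0902 to 0.0893 for different numbers. These values show no sign of pairing by number, but with so few libraries per group they cannot exclude it. The causes of these changes were not tested. Depth is unknown.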

Other observations

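The members lay on all 19 autosomes. Per 1000 shared regions they numbered from 5.07 on chromosome 18 (10 of 1972) to 9.05 on chromosome 3 (31 of 3425). The member at Wdfy2 on chromosome 14 holds the mature miRNA mmu-miR-8098, the 1 mature miRNA of the RefSeq table that lay in a member. In 50 members no protein-coding gene lay within 50 kb, among them the region ranked 2, which is 142314 bp from Gm40892 (chromosome 12, 92740864 to 92741404) and had folds of 9.05, 8.76 and 8.43 in DTR, against 13.1, 13.3 and 14.3 in WT. The groups are far apart there.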
